A study of Mus musculus with 9 samples.

Results

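Toll-like receptors and the first proteins that carry their signal were examined in induced regulatory T cells (induced Treg), CD4 T cells driven to express the transcription factor Foxp3. The 10 genes were 6 receptors (Tlr1, Tlr2, Tlr4, Tlr6, Tlr7 and Tlr9), the adaptor Myd88, the kinases Irak4 and Irak1, and the ubiquitin ligase Traf6. They were picked by symbol, with earlier results of these data known, and all 10 were found among the 28111 genes of the count table. The 9 mRNA sequencing libraries came from C57BL/6J mice. The Glut1 transgenic (Glut1Tg) group, which carries a transgene for the glucose transporter Glut1, had 4 libraries, and the wild-type (WT) group had 5. The labels also place each library in a mouse group: mouse group 1 held WT replicates 1 and 3 and Glut1Tg replicates 2, 3 and 4, and mouse group 2 held WT replicates 2, 4 and 5 and Glut1Tg replicate 1. The sources used here do not give what sets the mouse groups apart, the promoter of the transgene, the age of the mice or the culture conditions. Whether libraries of a group stem from separate mice is not stated either, so each p-value rests on the spread among these libraries, which may be technical.

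Toll-like receptors are membrane proteins that recognise conserved microbial molecules. At the cell surface TLR2 pairs with TLR1 or TLR6 to bind bacterial lipopeptides, and TLR4 binds lipopolysaccharide; TLR7 and TLR9 lie in endosomes and bind single-stranded RNA and CpG DNA. Ligand binding draws in MyD88, which assembles IRAK4 and IRAK1, and these activate TRAF6, whose ubiquitin chains switch on TAK1 and the IKK complex and so NF-kB. In T cells the same adaptors also serve the receptors for IL-1 and IL-18, and TRAF6 serves several receptors of the TNF receptor family. In regulatory T cells, Toll-like receptor signals have been studied as a driver of growth and of glucose use through Glut1, which is the question these genes bear on here.

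Total counts per library ran from 20881035 to 31196428. Slc2a1, which encodes Glut1, checked the genotype labels: it averaged 373 CPM (counts scaled to a common library size) in Glut1Tg and 42.1 CPM in WT libraries, and the model with a mouse group term fitted a 7.58-fold difference (adjusted p = 0.000903, edgeR's quasi-likelihood test with Benjamini-Hochberg adjustment). The cells carried the transcripts of their labelled type, with Foxp3 at 621 to 1164 CPM, Il2ra, the high-affinity IL-2 receptor chain, at 241 to 2959 CPM, and Lck, a T cell kinase, at 765 to 1005 CPM. WT replicate 2 and Glut1Tg replicate 1, both of mouse group 2, stood apart from the other 7 libraries on the first principal component, which held 50.7% of the variance, and Glut1Tg replicate 3 stood apart on the second, which held 20.4%. Xist was at 256 and 340 CPM in Glut1Tg replicates 2 and 4 and at most 1.32 CPM elsewhere, and the Y-linked Ddx3y was at most 0.298 CPM in those libraries and at least 57.5 CPM in the other 7.

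The members fell into 3 tiers of transcript level per length, expressed as RPKM, which is CPM per kilobase of exon. Traf6 (52.0 ± 24.0 RPKM, SD, n = 9), Tlr1 (41.5 ± 10.4), Irak1 (32.2 ± 3.23) and Myd88 (28.3 ± 6.42) formed the upper tier, within which neighbours overlapped between libraries. Tlr7 (6.22 ± 1.64), Irak4 (5.34 ± 1.32), Tlr2 (3.49 ± 1.07) and Tlr6 (1.88 ± 0.888) formed the middle tier, again with overlap between neighbours. Every library of the upper tier lay above every library of the middle one, since the lowest value of the upper tier was 17.8 RPKM, for Traf6 in WT replicate 4, and the highest of the middle tier 8.89 RPKM, for Tlr7. Tlr9 (0.219 ± 0.0999) and Tlr4 (0.0719 ± 0.0869) were near the bottom, below the lowest Tlr6 library at 0.962 RPKM. Among the 6 receptors, Tlr1 made up 77.8% of the summed mean level per length, Tlr7 11.6%, Tlr2 6.53% and Tlr6 3.53%, while Tlr9 and Tlr4 made up 0.410% and 0.135%.

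**Figure D1:**
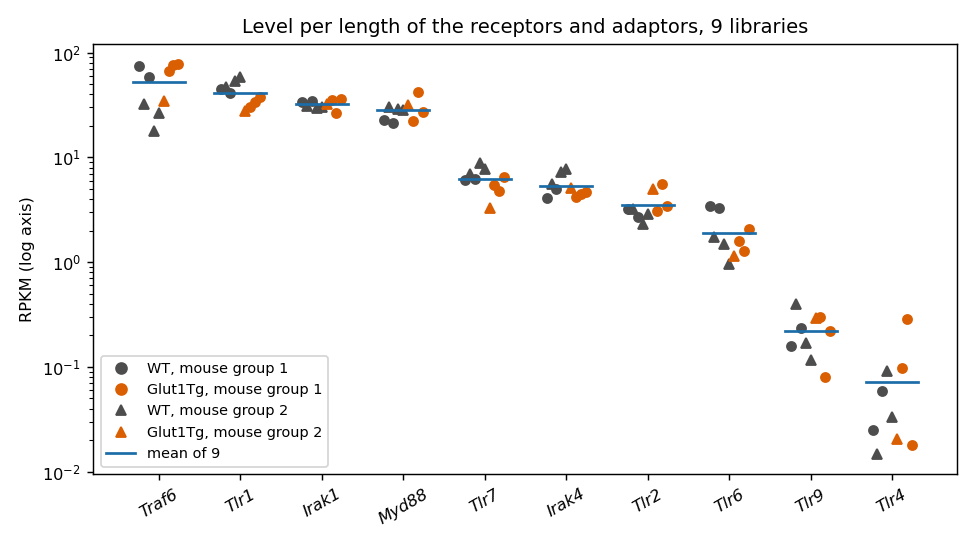
RPKM (log axis) of each gene in each of the 9 libraries, with colour for genotype, shape for mouse group and a bar for the mean of 9. Traf6, Tlr1, Irak1 and Myd88 lie above 17 RPKM in every library, and Tlr9 and Tlr4 lie below 0.4 RPKM in every library.

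The order of the genes differed between libraries within the upper tier. Traf6 was the highest of the 10 genes in 6 libraries, including all 5 of mouse group 1, but only the fourth in WT replicates 4 and 5, where Tlr1 was highest. Tlr1 ranked from 1 to 4, Irak1 and Myd88 from 2 to 4, and Tlr4 was last in 8 of 9 libraries.

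No member passed the genotype test at an adjusted p of 0.05, a threshold that 1 of the 14817 tested genes (0.00675%), Slc2a1 itself, passed, and DESeq2 called no member either. At an unadjusted p under 0.05, which 6.00% of all tested genes reached, 4 of 9 tested members differed between genotypes: Tlr1, Tlr6 and Tlr7 were lower and Tlr2 was higher in Glut1Tg libraries, while 222 of all tested genes were lower and 667 higher at that threshold. The median log2 fold change was -0.01 over the 9 tested members and 0.02 over all tested genes. In simulated libraries, the genotype test called sets of 200 changed genes at a rate of 0% for a 1.5-fold change, 14.5% for 2-fold and 69% for 4-fold. Differences of the size seen in the members were thus seldom callable for an average simulated gene. The rate for a given member may differ, since their SE ran from 0.13 (Irak1) to 0.50 (Tlr9) around an all-gene median of 0.25.

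Between mouse groups, 2 of 9 tested members passed, Traf6 and Tlr6, both lower in mouse group 2, where 24.1% of all tested genes passed, 11.0% as lower and 13.1% as higher. At an unadjusted p under 0.05, which 39.4% of all tested genes reached, Irak4 joined them as higher. The median log2 fold change was 0.07 over the members and -0.01 over all tested genes. Mouse group calls were therefore common across the transcriptome, and 2 of 9 is close to that background.

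Tlr1, the partner of TLR2 for triacylated lipopeptides, was at 150.0, 157, 136, 181 and 194 CPM in WT replicates 1 to 5 and at 92.5, 102, 112 and 126 CPM in Glut1Tg replicates 1 to 4. The highest Glut1Tg library lay below the lowest WT library. Tlr1 was the single tested member whose genotypes did not overlap, against 1.59% of all tested genes (0.580% lower). Its fold change was 0.678 (95% interval 0.527 to 0.872; log2 -0.56, SE 0.16), with unadjusted p = 0.0066 and adjusted p = 0.681. Within mouse group 1 the log2 difference was -0.34 (unadjusted p = 0.073). Without Glut1Tg replicate 1, the only Glut1Tg library of mouse group 2, it was -0.37 (unadjusted p = 0.064). That fit also compares the genotypes within mouse group 1 only, so it is not a separate check. Between mouse groups Tlr1 differed by 0.08 on the log2 scale (SE 0.16, adjusted p = 0.727).

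Tlr2, the shared partner of TLR1 and TLR6, was at 9.74, 9.66, 8.20, 7.02 and 8.67 CPM in WT replicates 1 to 5 and at 15.1, 9.20, 16.7 and 10.4 CPM in Glut1Tg replicates 1 to 4. Glut1Tg replicates 1 and 3 were high and came from different mouse groups, while Glut1Tg replicate 2 lay inside the WT range. The fold change between genotypes was 1.51 (95% interval 1.05 to 2.16; log2 0.59, SE 0.23), with unadjusted p = 0.0310 and adjusted p = 0.681. It was 0.43 on the log2 scale without Glut1Tg replicate 3 (unadjusted p = 0.066) and 0.40 without Glut1Tg replicate 1 (unadjusted p = 0.225). Within mouse group 1 it was 0.43 (unadjusted p = 0.228), which is no separate check from leaving out Glut1Tg replicate 1. Between mouse groups the log2 difference was 0.07 (SE 0.23, adjusted p = 0.840).

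Tlr6, the partner of TLR2 for diacylated lipopeptides, was at 12.7, 6.53, 12.1, 5.57 and 3.59 CPM in WT replicates 1 to 5 and at 4.24, 5.87, 4.79 and 7.70 CPM in Glut1Tg replicates 1 to 4. The WT libraries of mouse group 1 were the highest by a wide margin, and every other library lay at or below 7.70 CPM. Tlr6 fell in mouse group 2 to a fold of 0.511 of mouse group 1 (95% interval 0.336 to 0.777; log2 -0.97, SE 0.27, adjusted p = 0.0303), although the libraries of the mouse groups overlapped. This call was lost when WT replicate 1, 2 or 3 or Glut1Tg replicate 1 or 4 was left out (adjusted p from 0.0523 to 0.0928). It was also lost without a genotype term (adjusted p = 0.107) and within WT libraries alone, where the log2 difference was -1.25 (adjusted p = 0.0708). The fit without Glut1Tg replicate 1 also compares the mouse groups among WT libraries only. Between genotypes Tlr6 had a fold change of 0.598 (95% interval 0.394 to 0.909; log2 -0.74, SE 0.27), with unadjusted p = 0.0212 and adjusted p = 0.681. Within mouse group 1 it was 2.04-fold lower in Glut1Tg libraries (unadjusted p = 0.0088, adjusted p = 0.910).

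Tlr7, the endosomal receptor for single-stranded RNA, was at 24.6, 28.6, 25.5, 36.3 and 31.9 CPM in WT replicates 1 to 5 and at 13.5, 22.1, 19.7 and 26.3 CPM in Glut1Tg replicates 1 to 4. Glut1Tg replicate 1 was lowest, and the Glut1Tg libraries of mouse group 1 straddled the WT libraries of the same group. The fold change between genotypes was 0.687 (95% interval 0.472 to 0.999; log2 -0.54, SE 0.24), with unadjusted p = 0.0496 and adjusted p = 0.681, and without Glut1Tg replicate 1 the log2 difference shrank to -0.17 (unadjusted p = 0.425). Within mouse group 1, which alone sets the genotype difference when Glut1Tg replicate 1 is left out, it was -0.15 (unadjusted p = 0.465). Between mouse groups Tlr7 differed by -0.03 (SE 0.24, adjusted p = 0.926). Tlr7 lies on the X chromosome, and the Glut1Tg libraries with Xist transcripts, replicates 2 and 4, had the 2 highest Tlr7 levels of their genotype; the part of sex in this was not tested.

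Tlr9, the endosomal receptor for CpG DNA, was at 0.554, 1.38, 0.812, 0.588 and 0.403 CPM in WT replicates 1 to 5 and at 1.02, 1.04, 0.280 and 0.770 CPM in Glut1Tg replicates 1 to 4, from 7 to 34 counts per library. The groups overlapped throughout. The log2 difference was 0.16 between genotypes (SE 0.50, adjusted p = 0.927) and 0.34 between mouse groups (SE 0.50, adjusted p = 0.644). For so few counts the spread was wide, and the 95% interval of the fold between genotypes ran from 0.512 to 2.45.

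Tlr4, the lipopolysaccharide receptor, had 3, 2, 8, 13 and 5 counts in WT replicates 1 to 5 and 3, 11, 40 and 3 counts in Glut1Tg replicates 1 to 4. It did not pass the filter on low counts and was not tested. Glut1Tg replicate 3 alone held more Tlr4 counts than all WT libraries together. Without the filter the log2 difference was 0.76 between genotypes (SE 0.93, adjusted p = 0.867) and -0.77 between mouse groups (SE 0.95, adjusted p = 0.668).

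**Figure D2:**
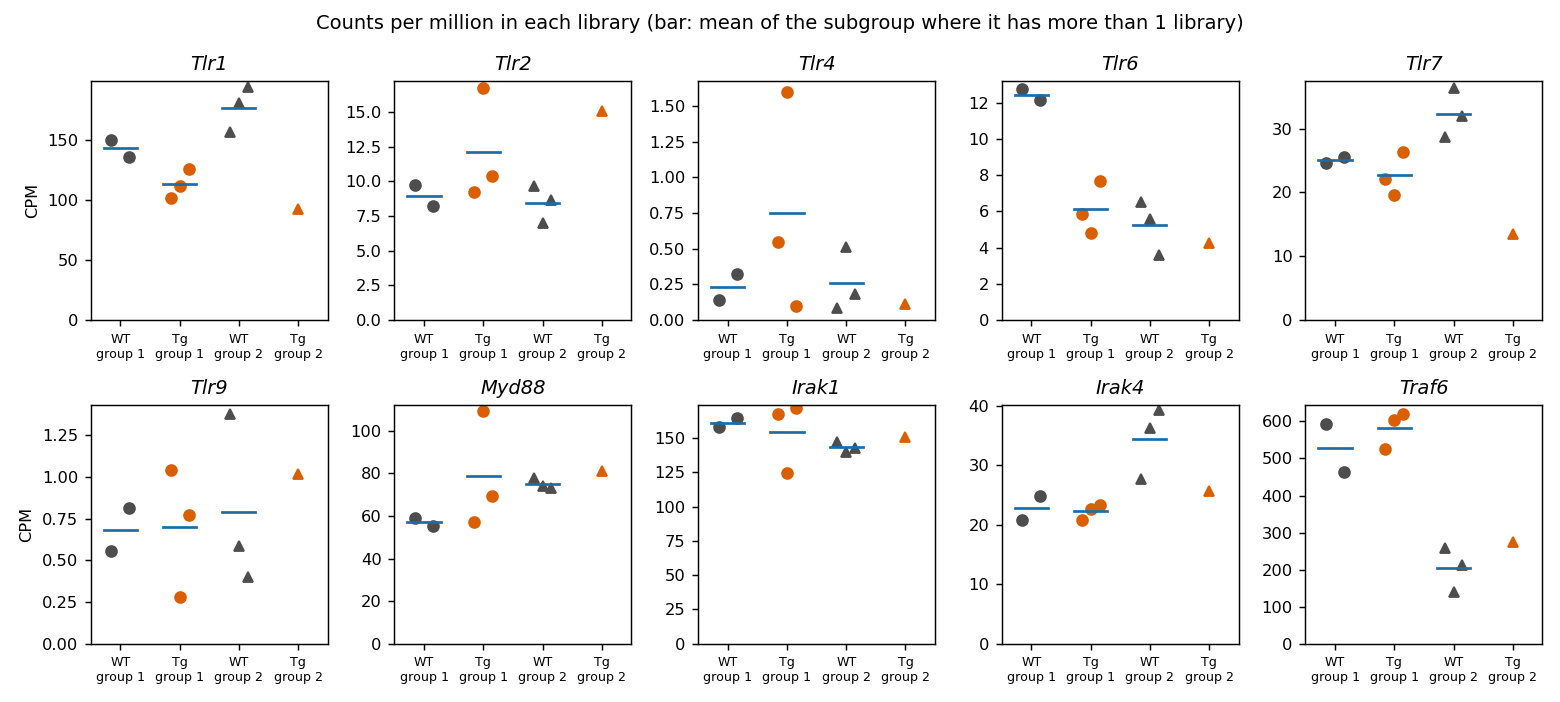
CPM of each gene in each library, split by genotype and mouse group, with a bar for the mean of a subgroup of more than 1 library; every axis starts at 0. Traf6 separates the mouse groups without overlap (463 to 621 against 140 to 274 CPM), and Tlr1 separates the genotypes (92.5 to 126 in Glut1Tg against 136 to 194 CPM in WT).

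Downstream of the receptors, Myd88, the adaptor that all of these receptors share, was at 59.2, 77.9, 55.3, 73.9 and 73.1 CPM in WT replicates 1 to 5 and at 81.0, 57.2, 109 and 69.3 CPM in Glut1Tg replicates 1 to 4. Glut1Tg replicate 3 was the highest library. The log2 difference was 0.33 between genotypes (SE 0.20, adjusted p = 0.681) and 0.26 between mouse groups (SE 0.20, adjusted p = 0.376). Without Glut1Tg replicate 3 Myd88 passed the mouse group test, at 0.39 higher in mouse group 2 on the log2 scale (adjusted p = 0.0244), and its genotype difference was 0.12.

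Irak4, the kinase that MyD88 binds first, was at 20.7, 27.7, 24.8, 36.3 and 39.3 CPM in WT replicates 1 to 5 and at 25.8, 20.8, 22.6 and 23.4 CPM in Glut1Tg replicates 1 to 4. Every mouse group 2 library lay above every mouse group 1 library, as it did in one direction or the other for 21.8% of all tested genes. The fold was 1.37 (95% interval 1.06 to 1.76; log2 0.45, SE 0.16), which missed the threshold (adjusted p = 0.0729), while the log2 difference between genotypes was -0.18 (SE 0.16, adjusted p = 0.728). DESeq2 called the mouse group difference (adjusted p = 0.0386), as did the fit without a genotype term (adjusted p = 0.0331).

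Irak1, the kinase that IRAK4 activates, varied least, at 158, 147, 165, 140.2 and 142 CPM in WT replicates 1 to 5 and at 151, 168, 124 and 172 CPM in Glut1Tg replicates 1 to 4. The log2 difference was -0.01 between genotypes (SE 0.13, adjusted p = 0.987), with a 95% interval of the fold from 0.813 to 1.22, and -0.12 between mouse groups (SE 0.13, adjusted p = 0.534). Irak1 is X-linked as well, and the Glut1Tg libraries with Xist transcripts had its 2 highest levels. Both are of mouse group 1, the model held no term for sex, and the part of sex was not tested.

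Traf6, the ubiquitin ligase that links the kinases to TAK1, was at 592, 257, 463, 140.4 and 211 CPM in WT replicates 1 to 5 and at 274, 525, 604 and 621 CPM in Glut1Tg replicates 1 to 4. All 5 libraries of mouse group 1 were above 460 CPM and all 4 of mouse group 2 were below 280 CPM, in both genotypes. Traf6 fell 2.40-fold in mouse group 2, to a fold of 0.416 (95% interval 0.305 to 0.567; log2 -1.27, SE 0.20, adjusted p = 0.0041). It passed with each library left out in turn (log2 from -1.39 to -1.14, adjusted p from 0.0036 to 0.0266). It also passed within WT libraries alone (log2 -1.38, adjusted p = 0.0475), an alternative chosen after the data had been seen. Leaving out Glut1Tg replicate 1 also compares the mouse groups among WT libraries only, so these are not separate checks. Between genotypes the log2 difference of Traf6 was 0.26 (SE 0.19, adjusted p = 0.689).

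**Figure D3:**
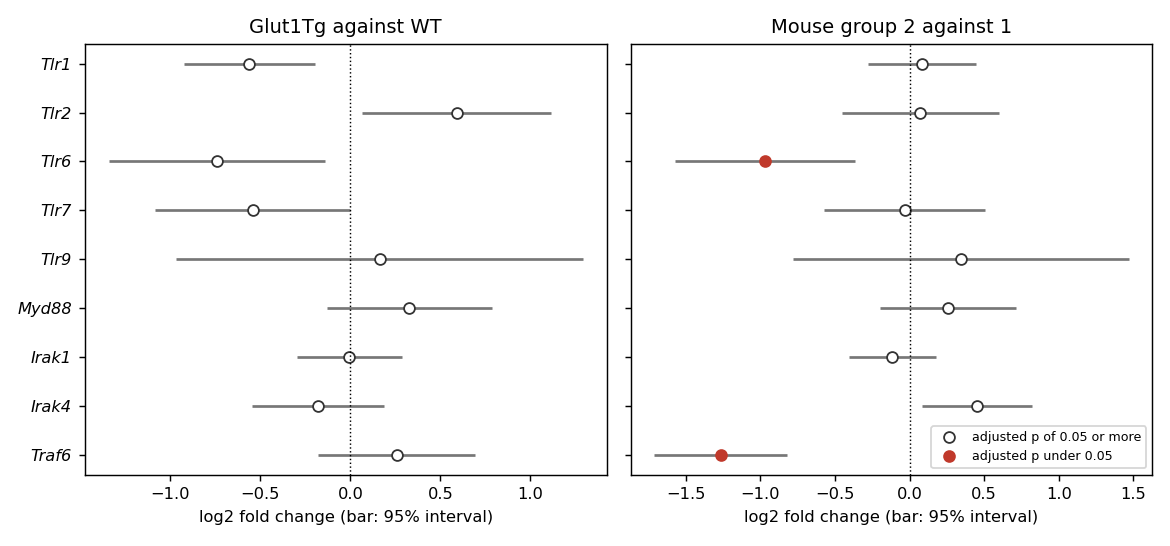
Log2 fold changes of the 9 tested members with 95% intervals, for Glut1Tg against WT on the left and mouse group 2 against mouse group 1 on the right, from the same model with both terms. Filled red points have an adjusted p under 0.05: Traf6 at -1.27 and Tlr6 at -0.97 by mouse group, and none by genotype.

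The interaction of genotype and mouse group tested whether the genotype difference was the same in both mouse groups, with mouse group 2 holding 1 Glut1Tg library whose spread is taken from the others. No tested gene passed at an adjusted p of 0.05 in edgeR, and 5.30% had an unadjusted p under 0.05; DESeq2 called 2 genes. Among the members only Tlr7 was under 0.05 before adjustment, with a genotype difference lower by 1.11 log2 units in mouse group 2 than in mouse group 1 (SE 0.32, unadjusted p = 0.0079, adjusted p = 0.741). In mouse group 2, Glut1Tg replicate 1 had 13.5 CPM of Tlr7 against 28.6 to 36.3 CPM in WT, and in mouse group 1 the ranges were 19.7 to 26.3 CPM in Glut1Tg and 24.6 to 25.5 CPM in WT. Tlr1 had an interaction of -0.60 (SE 0.27, unadjusted p = 0.0563, adjusted p = 0.741).

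Ratios within a library were chosen after the values had been seen and were not tested. Per length, Tlr1 exceeded Tlr2 by 13.9 to 23.2 times in WT libraries and by 5.53 to 10.9 times in Glut1Tg libraries, with no overlap. Neither gene passed the genotype test. Tlr1 alone already separated the genotypes, and Traf6 alone the mouse groups, so the same separation in their ratios is no separate result. Tlr1 exceeded Tlr6 by 12.5 to 26.0 times in mouse group 1 and by 24.3 to 60.4 times in mouse group 2. Tlr1 to Tlr7 stayed between 5.62 and 8.33 in all 9 libraries, a narrower range than the other ratios given here. Traf6 to Myd88 was 1.80 to 3.27 in mouse group 1 and 0.621 to 1.11 in mouse group 2, and Traf6 to Irak1 was 1.68 to 2.91 and 0.599 to 1.09.

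Transcripts of other cell types were checked because myeloid cells carry far more of several Toll-like receptors than T cells do. In bulk RNA, fewer cells of a type and less RNA per cell cannot be told apart. Glut1Tg replicate 3 was the highest library for 12 myeloid markers summed (845 CPM, against 213 to 448 CPM in the other 8), for 8 neutrophil markers (228 against 4.17 to 12.1 CPM), for 8 dendritic cell markers (29.2 against 5.52 to 7.87 CPM) and for 10 mast cell and basophil markers (2539 against 93.2 to 853 CPM). Lyz2, a lysozyme of macrophages and neutrophils, was at 207 CPM there and at most 2.67 CPM elsewhere, S100a9 was at 77.8 CPM and at most 0.863 CPM elsewhere, and the mast cell protease gene Cpa3 was at 1670.0 CPM and at most 524 CPM elsewhere. Csf1r, another of the myeloid markers, was at 7.43 CPM there and at most 0.431 CPM elsewhere. Ctss, the most abundant of the myeloid list, was at 200.4 to 415 CPM with Glut1Tg replicate 3 inside that range, and Kit, Mpo, Itgax and Zbtb46 reached at most 146, 27.7, 17.3 and 6.01 CPM. Of 8 B cell markers, Ighm was at 275 to 846 CPM and Cd79a at 2.84 to 6.41 CPM. Tlr2, Tlr4 and Myd88 were each highest in Glut1Tg replicate 3, and the part of other cells in those values was not tested. Tlr2 was nearly as high in Glut1Tg replicate 1, at 15.1 CPM, which had the lowest summed myeloid and mast cell markers of the 9 libraries. Traf6 at 604 CPM and Tlr6 at 4.79 CPM in Glut1Tg replicate 3 were within the range of the other Glut1Tg libraries.

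**Figure D4:**
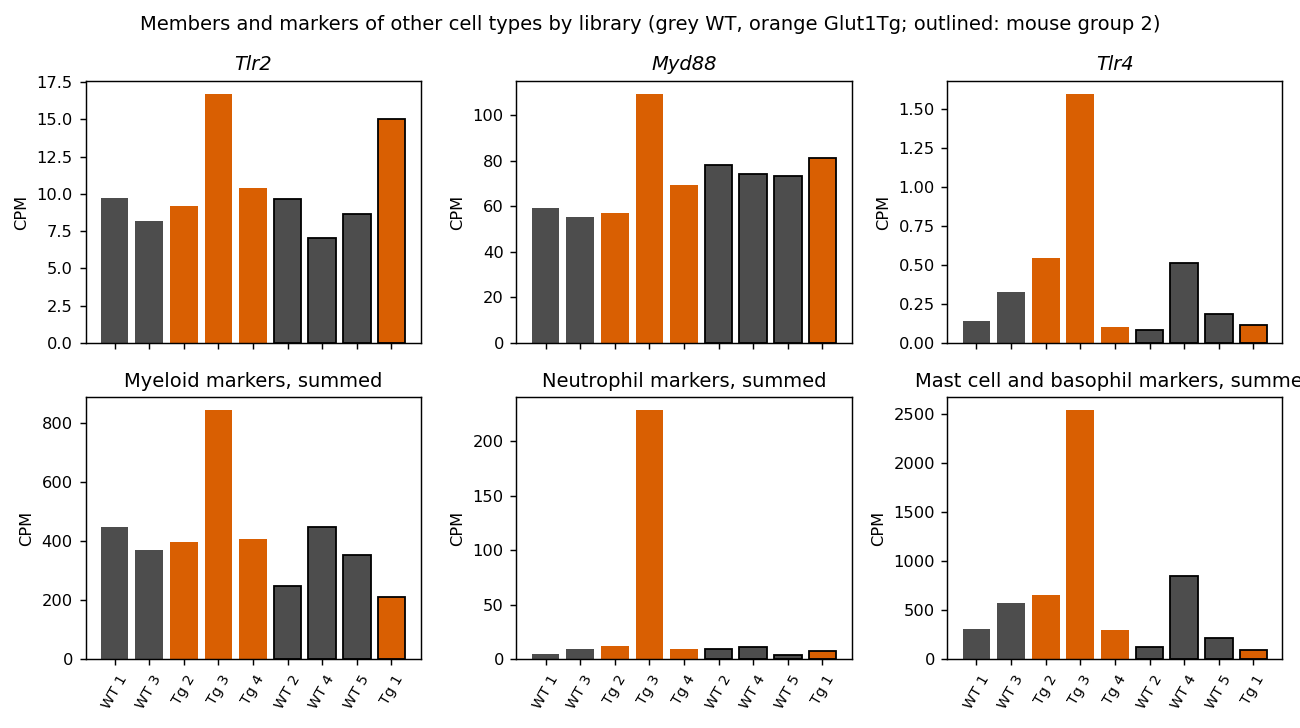
CPM by library of Tlr2, Myd88 and Tlr4 (top) and of summed myeloid, neutrophil, and mast cell and basophil markers (bottom), with axes from 0. Glut1Tg replicate 3 has the highest bar in each panel, and Glut1Tg replicate 1 has a high Tlr2 level of 15.1 CPM beside the lowest summed myeloid level of 213 CPM.

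The rest of the pathway was read from lists of its known genes. None of the listed genes passed the genotype test in edgeR, and 1 negative regulator and 2 induced genes had an unadjusted p under 0.05, all higher in Glut1Tg libraries. Of all tested genes 6.00% reached that threshold, 667 as higher and 222 as lower. Of 6 other Toll-like receptors only Tlr12 was tested, at 0.378 to 4.34 CPM, with a log2 difference of -1.42 between mouse groups (SE 0.69, adjusted p = 0.160). Tlr5, the flagellin receptor, was at 2.72 CPM in WT replicate 2 and 1.93 CPM in Glut1Tg replicate 1 and at most 0.360 CPM in the other 7 libraries; those 2 libraries are the ones that stood apart on the first principal component. None of the 7 tested co-receptors and trafficking genes passed by mouse group (median log2 -0.07), among them Hsp90b1, the chaperone that folds Toll-like receptors, at 232 to 696 CPM (log2 0.83, SE 0.30, adjusted p = 0.0752) and Rftn1 at 60.9 to 94.4 CPM (log2 -0.07, SE 0.15, adjusted p = 0.771).

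Among the steps around TRAF6, 4 of 13 tested IRAK, TAK1 and IKK genes fell in mouse group 2 and none rose, with a list median of -0.15. Of all tested genes 24.1% were called in either direction, 11.0% as lower and 13.1% as higher, with a median of -0.01. Tab3, a subunit that lets TAK1 read ubiquitin chains, was at 35.6 to 60.2 CPM in mouse group 1 and 20.7 to 23.9 CPM in mouse group 2 (log2 -1.23, SE 0.16, adjusted p = 0.0022). Peli1, a ubiquitin ligase for IRAK proteins, fell by 0.94 (adjusted p = 0.0166), Map3k8 fell by 1.26 (adjusted p = 0.0441) and Ikbkg, the regulatory subunit of IKK, fell by 0.46 (adjusted p = 0.0458) on the log2 scale. Of 12 tested negative regulators 2 fell and none rose (list median -0.30), a share near the 11.0% of all tested genes that fell and below the 24.1% called in either direction. Tollip, which binds IRAK1 and restrains it, fell by 0.95 (adjusted p = 0.0015), from 119 to 129.6 CPM down to 62.3 to 70.2 CPM, and Tnip1, a partner of the ubiquitin-editing enzyme A20, fell by 1.39 (adjusted p = 0.0102).

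Of 20 tested genes that Toll-like receptors induce, 3 fell in mouse group 2 and none rose, with a list median of -0.40, again near the 11.0% of all tested genes that fell and below the 24.1% called in either direction. At an unadjusted p under 0.05, which 39.4% of all tested genes reached in either direction, 5 of the 20 were lower and 3 higher. The 3 genes that fell at the adjusted threshold are also targets or subunits of NF-kB downstream of the T cell and TNF family receptors. Relb, an NF-kB subunit, was at 179 to 242 CPM in mouse group 1 and 61.9 to 70.9 CPM in mouse group 2 (log2 -1.62, SE 0.13, adjusted p = 0.0012). Birc3, a ubiquitin ligase, fell by 1.25 (adjusted p = 0.0020) and Rel, the NF-kB subunit c-Rel, fell by 1.12 (adjusted p = 0.0127) on the log2 scale. Traf6, Tab3, Relb, Birc3, Tollip and Tbk1 kept their call with each library left out in turn, whereas Peli1, Map3k8, Ikbkg, Tnip1 and Rel lost theirs without Glut1Tg replicate 1 (adjusted p from 0.0507 to 0.279). Peli1 and Rel also lost theirs without WT replicate 1 (adjusted p = 0.0628 and 0.0515), Map3k8 without WT replicate 1, 2, 3 or 4 or Glut1Tg replicate 4 (adjusted p from 0.0622 to 0.0872), and Ikbkg without WT replicate 1, 2, 3 or 5 or Glut1Tg replicate 2 or 4 (adjusted p from 0.0768 to 0.118) and with 2 other scalings (adjusted p = 0.0515 and 0.0521). Within WT libraries alone, Tab3, Relb, Birc3, Tollip and Tnip1 passed as Traf6 did. Tbk1, Peli1, Map3k8, Ikbkg and Rel did not pass there (adjusted p from 0.0529 to 0.188). The fit without Glut1Tg replicate 1 also compares the mouse groups among WT libraries only, so it is not a separate check.

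Among the other adaptors and the TRIF branch, which signals from TLR3 and TLR4, 1 of 12 tested genes rose and 1 fell (list median 0.19). Of all tested genes 13.1% rose and 11.0% fell, a background that holds for the IL-1 family receptors below as well. Tbk1, the kinase of IRF3, was at 99.8 to 110.1 CPM in mouse group 1 and 64.1 to 72.9 CPM in mouse group 2 (log2 -0.65, SE 0.10, adjusted p = 0.0045). Irf5, a transcription factor that MyD88 activates, rose by 0.84 (adjusted p = 0.0224), mostly in WT replicate 2 and Glut1Tg replicate 1 at 54.7 and 59.2 CPM against 23.9 to 35.2 CPM elsewhere, and it lost its call without either of them (adjusted p = 0.0535 and 0.242) and without WT replicate 1 (adjusted p = 0.0502). Of the 6 IL-1 family receptors, Il18r1, the IL-18 binding chain, rose by 0.86 (adjusted p = 0.0144) and Il1r1 fell by 1.36 (adjusted p = 0.0481), the latter from 3.38 to 8.35 CPM down to 1.21 to 3.96 CPM. Il18r1 lost its call without Glut1Tg replicate 1 (adjusted p = 0.177), and Il1r1 lost its call without any 1 library other than WT replicate 4 and Glut1Tg replicate 3 (adjusted p from 0.0623 to 0.262) and with 2 other scalings (adjusted p = 0.0503 and 0.0607). Within WT libraries alone, Irf5, Il18r1 and Il1r1 did not pass (adjusted p from 0.166 to 0.285), which is no separate check from leaving out Glut1Tg replicate 1.

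**Figure D5:**
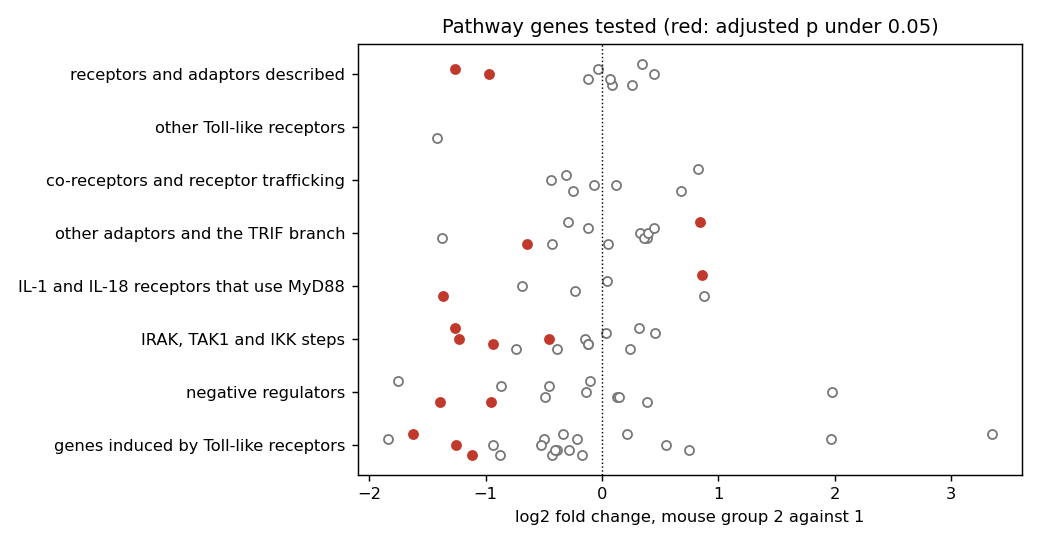
Log2 fold change of mouse group 2 against mouse group 1 for each tested gene of the described receptors and adaptors and of 7 related lists, 1 point per gene, with red for an adjusted p under 0.05. Called genes lie left of 0 in the IRAK, TAK1 and IKK steps, the negative regulators and the induced genes, and Irf5 and Il18r1 are the called genes to the right.

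Sequences upstream of the genes that differed most are given from the RefSeq promoter table for GRCm38.p6, the build of mm10: 200 bases that end 51 bases before an annotated start, 5′ to 3′ on the strand of the gene, with matches to any of 6 motifs in capitals. The motifs were searched on both strands in 32851 such windows: GGNNTTTCC for NF-kB (in 3.88% of them), AAANNGAAA for IRF factors (7.66%), TTCNNNGAA for STAT factors (5.76%), TGANTCA for AP-1 (5.57%), CCGGAA for ETS factors (8.03%) and TATAAA (9.14%). The Traf6 window lies at chr2:101678170-101678369 on the plus strand, 1 of 2 Tlr1 windows at chr5:64933609-64933808, and the Tlr6 windows, before its 2 annotated starts, at chr5:64959217-64959416 and chr5:64960099-64960298, all 3 on the minus strand.
Traf6: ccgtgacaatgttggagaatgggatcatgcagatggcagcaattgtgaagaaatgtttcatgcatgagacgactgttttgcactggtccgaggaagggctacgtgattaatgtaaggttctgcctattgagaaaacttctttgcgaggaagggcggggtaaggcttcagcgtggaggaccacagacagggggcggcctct
Tlr1: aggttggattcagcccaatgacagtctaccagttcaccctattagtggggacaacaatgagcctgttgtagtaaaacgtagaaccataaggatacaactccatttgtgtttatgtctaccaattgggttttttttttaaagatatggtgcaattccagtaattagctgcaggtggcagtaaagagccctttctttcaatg
Tlr6, first window: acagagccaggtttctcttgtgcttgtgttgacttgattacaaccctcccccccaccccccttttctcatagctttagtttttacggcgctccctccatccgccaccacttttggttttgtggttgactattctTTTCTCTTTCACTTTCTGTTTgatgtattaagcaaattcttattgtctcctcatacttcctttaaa
Tlr6, second window: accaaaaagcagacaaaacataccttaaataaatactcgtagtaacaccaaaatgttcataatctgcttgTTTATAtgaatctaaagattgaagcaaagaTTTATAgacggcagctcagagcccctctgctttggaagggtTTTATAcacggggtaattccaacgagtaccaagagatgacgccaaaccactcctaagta
The Traf6 window and the Tlr1 window printed hold none of the 6 motifs. The window before the other annotated start of Tlr1, chr5:64932750-64932949, is not printed because 161 of its bases are exonic, and it holds 1 STAT match and 1 ETS match. The capitals of the first Tlr6 window are 3 overlapping IRF matches on the opposite strand, and those of the second are 3 TATAAA matches on the opposite strand. The first Tlr6 window lies inside the Tlr6 gene but touches no exon. A match is a run of letters and not a site shown to be bound. Tlr4 and Tlr7 were not matched in the promoter table.

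Tlr1 (chr5:64924679-64933563) and Tlr6 (chr5:64952031-64960097) are tandem genes on the minus strand of mm10, 18467 bases apart, and their coding sequences are identical at 74.1% of 2371 aligned bases, against 51.3% for Tlr1 and Tlr2. Of the 75-base words in the Tlr1 transcripts, 75 bases being the read length, 10.3% also occur in Tlr6, and 9.25% of the Tlr6 words occur in Tlr1. The longest identical run, 229 bases of coding sequence, is shown because a read inside it cannot be assigned to one gene by its own sequence. Reads came in pairs, so a mate outside the run could still place the pair. The run spans chr5:64925537-64925765 in Tlr1 and chr5:64953828-64954056 in Tlr6, and since every base is shared none is in capitals.
Tlr1 and Tlr6, shared run: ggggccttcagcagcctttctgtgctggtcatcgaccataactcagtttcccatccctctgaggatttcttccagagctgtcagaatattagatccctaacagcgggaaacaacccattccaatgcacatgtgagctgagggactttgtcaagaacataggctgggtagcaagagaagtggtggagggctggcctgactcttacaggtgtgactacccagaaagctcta
With Tlr1 at 12.5 to 60.4 times the level of Tlr6 per length, the Tlr6 counts are the more uncertain of the pair, and the sources used here do not say how the authors' counting treated such reads.

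The other members are further apart. Tlr2 (chr3:83836272-83841767, minus strand), Tlr4 (chr4:66827584-66930284, plus), Tlr7 (chrX:167304929-167330558, minus), Tlr9 (chr9:106222598-106226883, plus) and Traf6 (chr2:101678429-101701669, plus) share no 75-base word with another gene and no exonic base with another annotated gene. Myd88 (chr9:119335934-119341411, minus) overlaps exons of Acaa1a on the opposite strand by 290 bases, and Irak4 (chr15:94543643-94581815, plus) overlaps Twf1 by 395 bases. Irak1 (chrX:74013914-74023918, minus) holds the microRNA genes Mir5132 and Mir718 within its exons. The sources used here do not give the strand setting of the counting, so reads of Myd88 and Irak4 in the overlaps could have been left out or shared.

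The genes whose profiles over the 9 libraries lay closest to each receptor were ranked by the root-mean-square difference of centred log2 CPM, a description over libraries that share both groupings. Closest to Tlr1, whose own SD was 0.36 log2 units, were Hacl1 (0.12), Ifi203 (0.12) and Dnase2a (0.14). Closest to Tlr7 (own SD 0.41) were Pot1b (0.14), Ifi203 again (0.15) and Gimap8 (0.16). Ifi203, an interferon-inducible gene, was thus among the nearest 3 of both. Tlr1 to Tlr7 stayed between 5.62 and 8.33 per length in all 9 libraries, so a shared neighbour is no separate result. Closest to Tlr2 (own SD 0.40) were Atp5k (0.14), Pdss1 (0.14) and Polr2h (0.15), and Atp5k was, like Tlr2, highest in Glut1Tg replicates 3 and 1, at 82.7 and 69.7 CPM. Tlr6 (own SD 0.62) had no profile as close, with Rybp-ps, a pseudogene whose counts may be shared with its parent, at 0.23 and Trbv1 and Fam124b at 0.26. Tlr9 (own SD 0.64) was nearest to Slc17a7 (0.28), Trav2 (0.28) and Lig4 (0.29).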

How the data were processed

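The 9 libraries (5 WT, 4 Glut1Tg) were grouped by the genotype and mouse group of their labels. Per the labels' protocols, stranded TruSeq mRNA libraries were read as 75 bp pairs. The submitters' processing notes name mm10 and the tools TopHat2, featureCounts, bcl2fastq and DESeq2; the sources used here give no versions, strand setting or annotation. The authors deposited raw counts per gene, not normalized, for 28111 genes. They also deposited a table of log2 values for 13700 genes, used for 1 alternative only.

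Counts were fitted in R 4.3.3 with edgeR 4.0.16 (filterByExpr by genotype, 14817 genes kept; TMM; quasi-likelihood, mouse group and genotype terms), with p-values adjusted over all tested genes by the Benjamini-Hochberg method at 0.05. CPM used TMM-scaled totals of tested genes, and RPKM divided them by the union of GENCODE M21 exons. Alternatives used limma 3.58.1, DESeq2 1.42.0, other scalings, no low-count filter, other terms and subsets of libraries. Subset fits kept the same genes, a choice made after seeing first results. The genotype test was tested on simulated counts. All library pairs differed beyond sampling noise (chi-square per gene at least 20.6).

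The members, lists and tests were chosen with earlier results of these data known. All members were named; of each pathway list, up to 4 genes passing a test by smallest p, otherwise the 2 with the highest mean CPM; of each marker list the 2 highest, with the highest library for myeloid, mast cell and neutrophil lists; and for each tested receptor the 3 nearest profiles. Csf1r and the ratios were added after values had been seen. From the regulatory T cell list 3 genes were named, Foxp3, Il2ra and Lck, which is more than the 2 highest. One listed gene, Acod1, was matched under its older symbol Irg1. The NF-kB and IRF motifs were shortened by 1 letter after a first search had been seen, which added 1 match to the first Tlr6 window and none to the other windows printed.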

Additional observations from a re-analysis of the deposited data

Results flagged for a closer look

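In 40 sets of values, the 10 genes in each genotype and each mouse group, the highest or lowest library was compared with its nearest neighbour by Dixon's ratio at the 95% critical value; chance marks about 1 in 20 such sets. Tlr2 at 16.7 CPM in Glut1Tg replicate 3 stood apart from the other 4 libraries of mouse group 1 (ratio 0.745), which lay between 8.20 and 10.4 CPM. Myd88 at 109 CPM in the same library stood apart from the others of mouse group 1 (ratio 0.741), which lay between 55.3 and 69.3 CPM. Glut1Tg replicate 3 also had the highest summed myeloid, neutrophil, dendritic cell and mast cell markers, and their part in these values was not tested.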

How the results depend on the processing

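No member passed the genotype or interaction test under any setting. Of the members' log2 fold changes, all 171 genotype and 81 interaction values under alternatives stayed on their side of the threshold; for mouse group 158 did, 10 lost a call (9 for Tlr6, 1 for Traf6) and 3 gained one (2 for Irak4, 1 for Myd88), and none reversed while called. Genes called by genotype, 1 in the main analysis, numbered 2 with no low-count filter, 7 with DESeq2, 0 within mouse group 1, 0 without Glut1Tg replicate 1 and WT replicate 2 together, and 1 to 2 with 1 library left out. Genes called by mouse group fell from 3576 to 642 within WT and 593 without those 2 libraries, and ran from 668 (without Glut1Tg replicate 1) to 4552 (without Glut1Tg replicate 3) with 1 left out; members called, 2, became 1, 1 and 1 to 3. Genes called for the interaction, 0, were 2 with DESeq2 and 0 to 123 with 1 library left out (123 without WT replicate 2, 3 without Glut1Tg replicate 3); it could not be fitted without Glut1Tg replicate 1. With genotype means removed, the deviations of same-numbered libraries correlated at r = -0.51, -0.59, 0.23 and -0.21 for numbers 1 to 4. Numbers 1, 2 and 4 join libraries of different mouse groups, whose means were not removed. These values therefore cannot decide whether replicate numbers pair the libraries. With the number as a replicate block, 0 genes were called by genotype, 0 by mouse group, and 0 members. By mouse group, Traf6 then had an adjusted p of 0.0585 and Tlr6 of 0.147. The cause of these changes was not tested, beyond the smaller number of libraries or residual degrees of freedom. Without Glut1Tg replicate 1, the genotypes are compared within mouse group 1 only and the mouse groups among WT libraries only. The fits without that library, within mouse group 1 and within WT are therefore not separate checks. Of the 13 other pathway genes called by mouse group, none changed sign under 19 alternatives each. Slc2a1 stayed 2.82 to 3.15 log2 units higher in Glut1Tg, without a call within mouse group 1, with the block and without those 2 libraries (adjusted p = 0.496, 0.254 and 0.124). Other scalings moved the median of all genes by less than 0.1 log2 units. Depth limits Tlr4 (2 to 40 counts) and Tlr9 (7 to 34 counts).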
